A study of Mus musculus with 4 samples.

Results

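Voltage-gated sodium and calcium channel subunits were the 40 protein-coding genes of GENCODE mouse release M21 whose symbols name a sodium channel alpha or beta subunit (Scn) or a calcium channel alpha1, alpha2delta, beta or gamma subunit (Cacna1, Cacna2d, Cacnb, Cacng). They were chosen by symbol alone, out of 35427 genes with a transcript in the files, of which 21725 were protein-coding. The 20 pore-forming genes comprised 10 sodium channel alpha subunits (Nav alpha), 4 Cav1, 3 Cav2 and 3 Cav3 genes. The 20 auxiliary genes comprised 4 sodium channel beta subunits (Nav beta), 4 alpha2delta, 4 Cav beta and 8 Cav gamma genes. Of their 287 annotated transcripts, 286 were listed in the files. The series measured RNA from C57BL/6J mice aged 4 months of the line P2RY12CreER x Rpl22HA, in which a Cre under the microglial P2RY12 gene activates an HA tag on the ribosomal protein Rpl22, and tagged ribosomes are recovered with their messages. All mice of both groups carried these alleles and were fear conditioned, a training that pairs a place or cue with a shock. Control mice then slept for 6 h, and sleep-deprived (SD) mice were kept awake for 6 h. Each group had 2 files, described as technical replicates, and each file pooled 2 mice. The groups were read from the sample titles, because the treatment field names sleep deprivation for all 4 samples.

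These channels open when the membrane depolarises. The large alpha or alpha1 subunit forms the pore and senses voltage: sodium channels carry the upstroke of the action potential, Cav1 (L-type) channels couple activity to transcription, Cav2 (P/Q-, N- and R-type) channels trigger transmitter release, and Cav3 (T-type) channels support burst firing near rest. Auxiliary beta and alpha2delta subunits bring the pore to the surface and tune its gating, while most neuronal gamma subunits, the TARPs, are better known as partners of AMPA-type glutamate receptors. In the brain these genes are used mainly by neurons.

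The files held between 14431647 and 14877011 estimated reads. Within a group, the 2 files were closer to each other than sampling noise allows for separate libraries: the chi-square per degree of freedom over genes was 0.335 between the control files and 0.207 between the SD files, against 73.8 to 73.9 between files of different groups. They were therefore averaged and counted as 1 sample, so that every comparison sets 1 library against 1 library with no replicate check and no p-value. Levels are given as CPM, estimated reads scaled to a common library size after TMM normalization of the libraries. Ratios are SD over control, and the range in brackets after a ratio or share is its 95% interval for counting error only, since reads are not independent molecules. A gene is called higher or lower in SD where its ratio was at least 2-fold and the interval excluded 1. All other differences are given as values. Fewer cells of a type, less RNA per cell and a different recovery or carry-over in the ribosome pulldown cannot be told apart in these samples.

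The files are labelled hippocampus, and marker genes of that tissue were low in them. Of 18 genes typical of forebrain and hippocampal pyramidal neurons, 14 were under 10 CPM in both libraries and the summed level was 135 CPM in control and 119 CPM in SD. Emx1, a transcription factor of the dorsal forebrain, had 2 reads in each control file and 0 in each SD file. For Prox1, a gene of dentate granule cells that other brain cells also use, the levels were 39.1 CPM (control) and 44.2 CPM (SD). In contrast, 14 genes typical of cerebellar granule cells summed to 5661 CPM in control and 6034 CPM in SD, among them Gabra6 at 570 and 778 CPM. A further 12 genes typical of Purkinje cells summed to 3160 CPM in control and 2120 CPM in SD (ratio 0.671, 0.661 to 0.681), with 2 of 12 called lower. These 3 lists were chosen after the values had been seen, and some of their genes are used in several brain regions. The libraries are called control and SD by their titles, and no other tissue is assigned to them. The channel values below therefore describe the libraries labelled hippocampus, and the part of these marker genes in them was not tested.

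**Figure D1:**
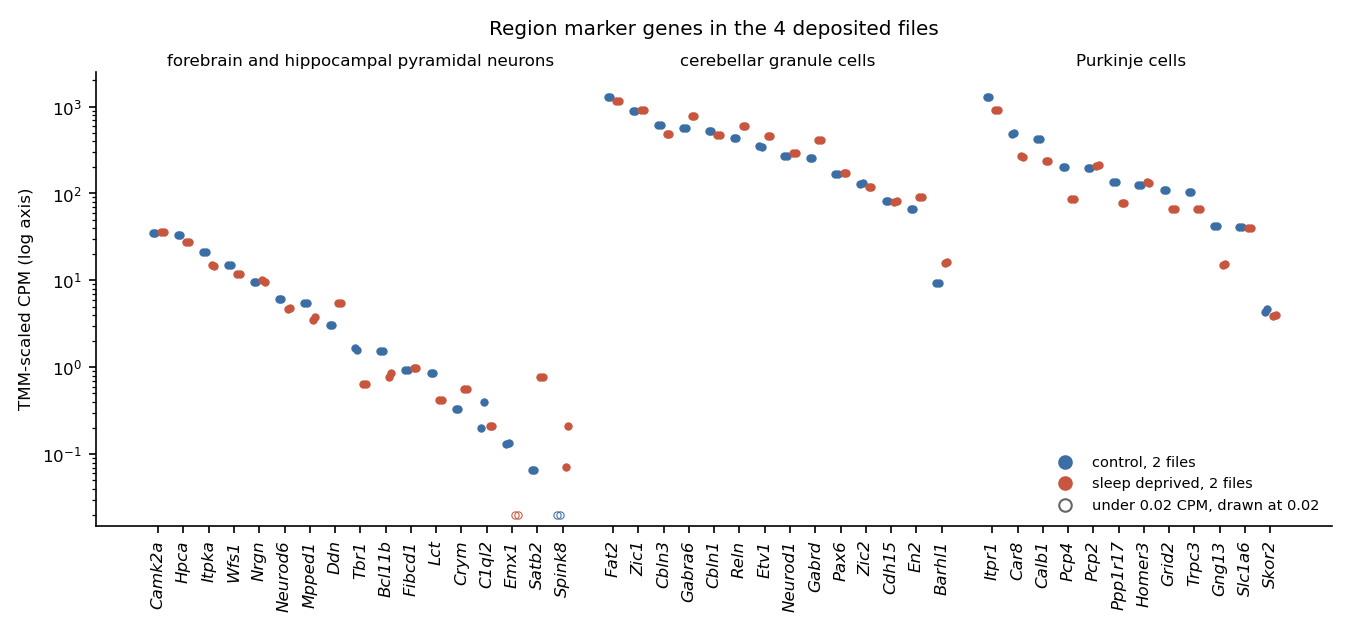
Level of genes of the 3 region marker lists in the 4 files, in TMM-scaled CPM on a log axis, with 1 point per file (blue, control; red, SD). Most forebrain and hippocampal genes lie under 10 CPM in all 4 files, while the granule cell genes, and the Purkinje cell genes other than Skor2, lie above that level in at least 1 group.

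Markers of other cell types differed between the libraries as well. Microglial markers summed to 177 CPM in control and 579 CPM in SD (ratio 3.27, 3.13 to 3.41), and 10 of 12 were called higher. Markers of all neurons summed to 3963 and 3441 CPM (ratio 0.868, 0.858 to 0.879), with 0 of 10 called. The summed ratio was 0.615 for inhibitory neurons, 0.587 for astrocytes and 0.625 for oligodendrocytes. For excitatory neurons it was 1.32, with 3 of 6 genes above 1 and 3 below, and the sum was led by Slc17a7 at 153 CPM in control and 260 CPM in SD. Their part in the channel ratios was not tested.

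Channel subunits took 0.429% of all gene reads in the control library and 0.461% in the SD library. Of the 40 genes, 34 had enough reads to be measured (16 pore-forming and 18 auxiliary). In SD, 1 measured member was called higher, Cacng8, and 2 were called lower, Cacna1h and Scn3b. Among all 14907 measured genes, 9.89% were called in either direction, 4.24% higher and 5.65% lower, so the count of 3 among 34 stood near the background. At 1.5-fold in place of 2-fold, 9 members were called, against 26.1% of all measured genes. The interval lay above 1 for 14 members and below 1 for 11, with no condition on size. The same held for 31.4% and 30.5% of all measured genes, so small differences beyond counting error were common everywhere in this pair of libraries.

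**Figure D2:**
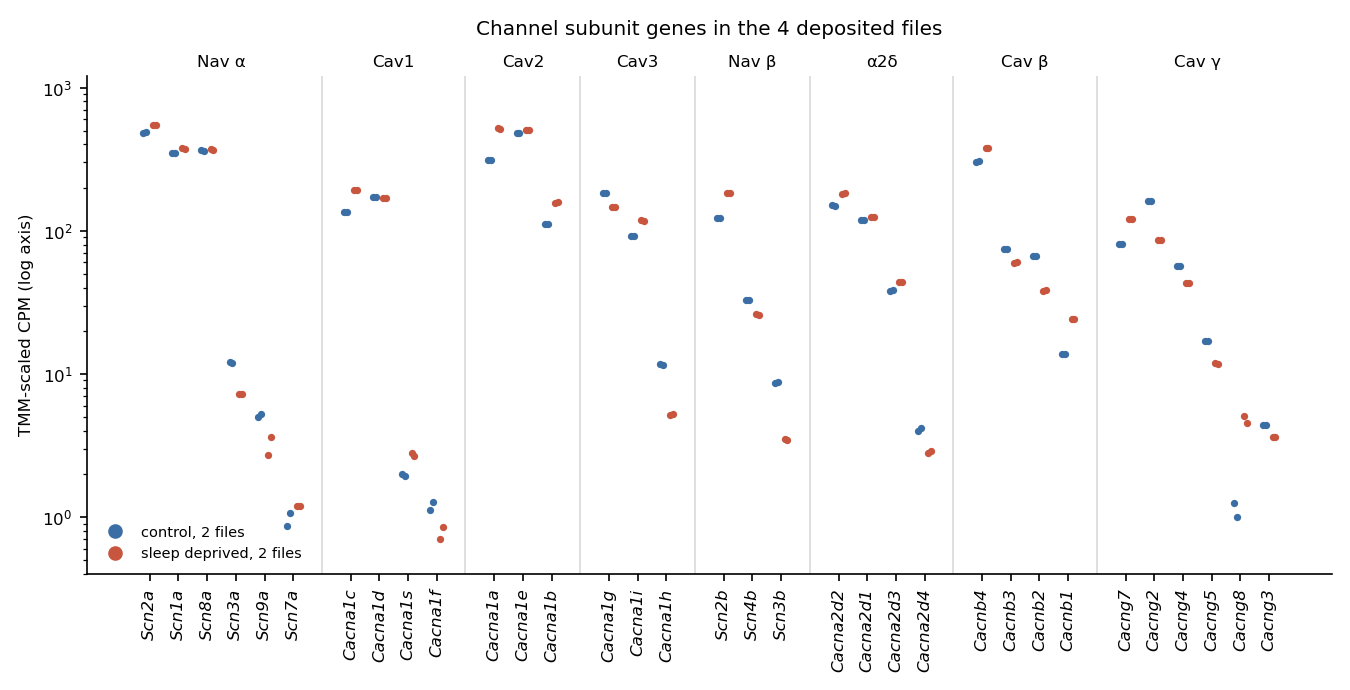
Level of measured channel subunit genes in the 4 files, in TMM-scaled CPM on a log axis, grouped by family, with 1 point per file (blue, control; red, SD). The 2 files of a group nearly coincide for all but the least abundant genes, and each family holds genes that differ by more than 1 order of magnitude in reads, except Cav2.

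Among the pore-forming sodium channels, the 3 abundant brain subunits differed little between the libraries. Scn2a, the alpha subunit of excitatory axons and immature initial segments, was at 484 and 486 CPM in the control files and 543 and 545 CPM in the SD files (ratio 1.12, 1.09 to 1.16). Scn1a, the alpha subunit best known from inhibitory interneurons and from Dravet syndrome, was at 351 and 351 CPM against 376 and 374 CPM (ratio 1.07, 1.03 to 1.11). Scn8a, found at nodes of Ranvier and initial segments, was at 366 and 362 CPM against 370 and 365 CPM (ratio 1.01, 0.971 to 1.05), so its interval included 1. Within Nav alpha reads, Scn2a took 39.8% in control and 41.9% in SD, Scn1a 28.8% and 28.9%, and Scn8a 29.9% and 28.3%. Their shares of the family were thus nearly the same in both libraries.

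The other Nav alpha genes had few reads. Scn3a, the alpha subunit of the embryonic brain, was at 12.1 and 11.9 CPM in control and 7.18 and 7.27 CPM in SD (ratio 0.60, 0.466 to 0.769). The values of Scn9a, a peripheral pain channel, were 4.99 and 5.20 CPM in control and 2.70 and 3.63 CPM in SD (ratio 0.622, 0.421 to 0.910). Scn7a, a sodium-sensing relative that is not opened by voltage in the usual way, had 13 to 17 reads in a file (ratio 1.29, 0.599 to 2.83). For Scn3a and Scn9a the interval lay below 1, as for 30.5% of all measured genes, and neither passed the 2-fold rule. Scn4a of skeletal muscle, and Scn10a and Scn11a of sensory neurons, had at most 4 reads in any file and were not measured.

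The transcripts of Scn1a included 1 that is annotated as a target of nonsense-mediated decay, a pathway that destroys messages with an early stop codon. This transcript, Scn1a-208, held 1008 and 988 reads in the control files and 622 and 623 reads in the SD files. Its share of Scn1a reads was 18.9% (17.8 to 19.95) in control and 11.7% (10.9 to 12.6) in SD. The share of Scn1a-201, the most abundant protein-coding transcript, was 79.2% and 84.2%. Scn1a-208 contains a 64-base exon that Scn1a-201 lacks, at chr2:66293832-66293895 on the minus strand of GRCm38. Its length is not a multiple of 3, so it shifts the reading frame, and the annotated coding sequence ends 128 bases after it, before a TAA stop codon. A decay-triggering exon of Scn1a is known in the brain and is a target of antisense drugs, and the exon is shown here because it is the only coding stretch of Scn1a-208 that Scn1a-201 lacks. The line below gives the transcript strand with the exon in capitals and 20 bases on either side in lower case.
Scn1a-208 exon: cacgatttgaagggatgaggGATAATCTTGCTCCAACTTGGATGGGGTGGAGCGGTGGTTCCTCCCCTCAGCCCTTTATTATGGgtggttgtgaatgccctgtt
Scn1a-208 also starts inside the gene and lacks many other exons of Scn1a-201, so its reads need not all come from the exon shown. The most abundant transcripts of the other Nav alpha genes were Scn2a-202, with 91.0% of Scn2a reads in control and 94.5% in SD, and Scn8a-205, with 99.4% and 96.3% of Scn8a reads. The share of Scn3a-201 was 50.7% and 29.6% in the control files and 100% in both SD files, a difference of 21.04 percentage points between the control files. That difference is wider than the counting interval of the control share (33.1 to 47.9). Scn3a-201 and Scn3a-202 differ mainly in their untranslated regions.

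Of the Cav1 family, Cacna1c, the main L-type pore of brain and heart, was at 135 and 135 CPM in the control files and 194 and 194 CPM in the SD files (ratio 1.43, 1.35 to 1.52). Cacna1d, the L-type pore that opens at more negative voltage, was at 173 and 172 CPM against 170 and 169 CPM (ratio 0.985, 0.932 to 1.04). The interval thus lay above 1 for Cacna1c and included 1 for Cacna1d. Cacna1s, the pore of skeletal muscle, had 29 to 40 reads in a file (ratio 1.38, 0.838 to 2.31), and Cacna1f, the pore of the retina, 10 to 19 reads (ratio 0.650, 0.278 to 1.45). Nearly all Cacna1c reads lay on the protein-coding Cacna1c-207, 93.2% in control and 95.3% in SD.

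The reads of Cacna1d were of another kind. The retained-intron transcripts Cacna1d-203 and Cacna1d-212 held 61.8% and 35.8% of them in control and 47.3% and 43.7% in SD. Retained-intron transcripts keep intronic sequence and are not annotated as coding. Summed over its protein-coding transcripts alone, Cacna1d stood at 0.349 TPM in control and 0.987 TPM in SD, against 76.5 and 88.7 TPM over all its transcripts (TPM is the authors' length-scaled level, with a fixed sum per file). The 2 scales thus gave different pictures of this gene, and on the protein-coding transcripts its ratio was 2.003. That ratio rests on 27.3 reads in control and 50.1 in SD. The protein-coding level was 1.27 and 0.704 TPM in the 2 SD files, so it varied widely within 1 library. An antisense gene, Chdh, shares 4.67% of the exon bases of Cacna1d, and whether the authors counted by strand is not stated.

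The Cav2 family was the only family whose measured members all had ratios above 1. Cacna1a, the P/Q-type pore of presynaptic terminals and of Purkinje cells, was at 313 and 313 CPM in the control files and 521 and 513 CPM in the SD files. Its ratio of 1.65 (1.59 to 1.71) was above that of 90.4% of all measured genes, without reaching the 2-fold rule. Cacna1b, the N-type pore, was at 111 and 112 CPM against 156 and 158 CPM (ratio 1.41, 1.32 to 1.501). Cacna1e, the R-type pore, was at 478 and 478 CPM against 505 and 503 CPM (ratio 1.06, 1.02 to 1.09). The interval lay above 1 in all 3 genes, as in 31.4% of all measured genes. Within the reads of the family, Cacna1a took 34.7% (33.9 to 35.5) in control and 43.9% (43.1 to 44.7) in SD, and Cacna1e 53.0% (52.1 to 53.8) and 42.8% (42.0 to 43.5). Cacna1e thus had the most Cav2 reads in control, while the intervals of the pair overlapped in SD. The leading transcripts were Cacna1a-211 (67.7% and 72.2% of Cacna1a reads) and Cacna1e-203 (99.3% and 99.2% of Cacna1e reads).

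Cacna1b reads were divided differently in the 2 libraries between a pair of protein-coding transcripts. Cacna1b-204 held 59.4% and 50.9% in the control files and 89.8% and 85.9% in the SD files. Cacna1b-202 held 38.6% and 47.5% against 4.83% and 9.49%. The files of a group differed by up to 8.89 percentage points, which is less than the difference between the groups. Cacna1b-204 contains a whole coding exon of 108 bases that Cacna1b-202 lacks, at chr2:24618255-24618362 on the minus strand of GRCm38. Its length is a multiple of 3, so the frame is kept. It is shown because it is the longest coding stretch of Cacna1b-204 that Cacna1b-202 lacks, with the exon in capitals and 20 transcript bases on either side.
Cacna1b-204 exon: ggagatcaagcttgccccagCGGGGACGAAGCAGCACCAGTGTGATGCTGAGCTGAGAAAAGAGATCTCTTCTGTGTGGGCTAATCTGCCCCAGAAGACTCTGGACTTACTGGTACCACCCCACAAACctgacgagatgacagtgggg
With the average transcript length of each library taken into account, the ratio of Cacna1b was 2.39 and passed the rule. In reads it was 1.41, and 1.40 over protein-coding transcripts alone. A nonsense-mediated decay transcript of the gene held 0 reads in control and 55.1 in SD. Which transcripts set the length effect was not tested.

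Among the Cav3 (T-type) genes, Cacna1h was called lower. This gene (ENSMUSG00000024112.16, chr17:25374285-25433783, minus strand, GRCm38), whose channel serves pain and thalamic firing, was at 11.7 and 11.5 CPM in the control files and 5.15 and 5.24 CPM in the SD files (176, 173, 73 and 74 reads). Its ratio was 0.453 (0.340 to 0.597). Cacna1g, the T-type pore of thalamus and cerebellum, was at 183 and 182 CPM against 146 and 146 CPM (ratio 0.801, 0.757 to 0.849). Cacna1i, the T-type pore of the reticular thalamus, was at 91.2 and 91.5 CPM against 118 and 118 CPM (ratio 1.29, 1.1997 to 1.39). The 3 genes of the family therefore did not move together, and their summed level had a ratio of 0.943 (0.903 to 0.986). On protein-coding transcripts alone the ratio of Cacna1h was 0.548, and it was not called. With the transcript length offset it was 0.134. In control, 16.2 reads lay on retained-intron and 12.4 on nonsense-mediated decay transcripts of Cacna1h, against 0 of each in SD. Its level in control was 8.70 TPM over all transcripts and 1.96 TPM over protein-coding ones. In SD both were 1.36 TPM. The part of these few reads in the value of 0.134 was not tested. The leading transcripts of the others were Cacna1g-209 (53.2% and 66.5%) and Cacna1i-202 (99.8% and 99.4%).

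The transcript assigned to Cacna1h also differed. Cacna1h-202 held 84.1% and 83.1% of its reads in the control files and 0 in both SD files (up to 4.93%), while Cacna1h-205 held 0 in both control files (up to 2.10%) and 99.0% in the SD library. Cacna1h-205 carries 53 coding bases that Cacna1h-202 lacks, as part of an exon at chr17:25376954-25377006 on the minus strand of GRCm38. They are printed because they are the longest coding stretch of Cacna1h-205 that Cacna1h-202 lacks, in capitals with 20 transcript bases on either side.
Cacna1h-205 stretch: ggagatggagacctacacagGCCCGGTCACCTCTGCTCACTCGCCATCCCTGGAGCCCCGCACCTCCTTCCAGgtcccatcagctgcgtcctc
The length of this stretch is not a multiple of 3. Cacna1h had 73 to 176 reads in a file, and how many of them fell on the stretch was not measured.

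Turning to the auxiliary subunits, the Nav beta genes went in different directions. Scn2b, which is joined to the pore by a disulfide bond, was at 123 and 123 CPM in the control files and 182 and 182 CPM in the SD files (ratio 1.48, 1.40 to 1.58). Scn4b, the subunit tied to resurgent current, was at 32.6 and 32.6 CPM against 26.2 and 25.8 CPM (ratio 0.796, 0.693 to 0.913). Scn3b was called lower. This gene (ENSMUSG00000049281.16, chr9:40269217-40291618, plus strand, GRCm38) encodes a partner held to the pore without a covalent bond and was at 8.62 and 8.71 CPM in control and 3.53 and 3.47 CPM in SD (130, 131, 50 and 49 reads). Its ratio was 0.409 (0.289 to 0.571), and 3.96% of measured genes had a lower one. Of all Nav beta reads, Scn2b took 29.7% in control and 40.3% in SD. Nav beta genes together held 25.3% (24.7 to 25.8) of sodium channel reads in control and 25.8% (25.3 to 26.4) in SD, so the balance of beta to alpha reads was the same within counting error.

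The transcripts of the Nav beta genes differed in untranslated sequence. Scn2b-201 held 70.4% (68.3 to 72.5) of Scn2b reads in control and 40.1% (38.2 to 42.0) in SD, and Scn2b-202 held the rest, with files of a group within 0.445 percentage points. Scn2b-202 differs by 99 bases of the 5' untranslated region and by 597 bases of the 3' untranslated region (chr9:45126722-45127318, plus strand), with the same coding sequence. Reads of Scn3b lay on Scn3b-202 in control (97.7%) and on Scn3b-203 in SD (89.9%), a pair that also differs outside the coding sequence. Scn4b had reads on Scn4b-201 alone.

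**Figure D3:**
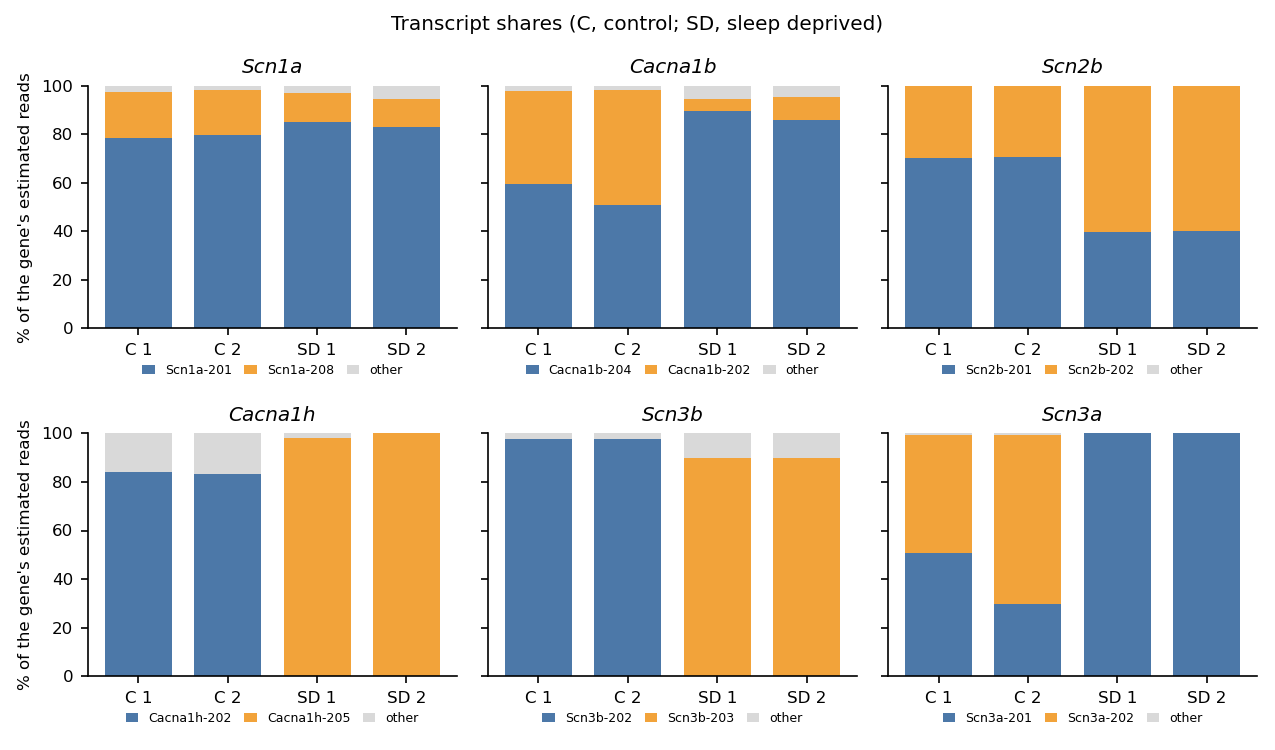
Share of each gene's estimated reads (percent, stacked to 100) held by its 2 leading transcripts and by all others in the 4 files, for 6 genes (C, control; SD, sleep deprived). The files of a group lie close together in Scn1a, Scn2b, Cacna1h and Scn3b and apart in the control files of Scn3a, where Scn3a-201 held 50.7% and 29.6%.

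Over all members, 12 of 77 transcripts with at least 30 reads in 1 library shifted by 20 percentage points or more in their share of the gene, which is 15.6%, against 12.1% of all such transcripts in the series. They came from 7 of 31 genes: Cacna1b, Cacna1h, Cacng8, Scn2b, Scn3a, Scn3b and Scn9a. Scn9a-201 held 78.3% in control and 55.4% in SD, with a spread of 16.1 points within 1 group. Retained-intron transcripts took 6.42% of member reads in control and 5.56% in SD, while over all genes they took 10.6% and 13.3%. The pore-forming genes held 7.55% and 6.39% of their reads on such transcripts, most of them in Cacna1d: without Cacna1d the shares were 1.42% and 1.44%. Nonsense-mediated decay transcripts took 1.64% and 1.24% of member reads, nearly all on pore-forming genes and led by Scn1a-208.

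The alpha2delta genes, which encode the binding site of gabapentin in their first members, differed little. Cacna2d2 was at 150 and 148 CPM in the control files and 182 and 184 CPM in the SD files (ratio 1.23, 1.16 to 1.30). Cacna2d1 was at 118 and 119 CPM against 124 and 124 CPM (ratio 1.05, 0.979 to 1.12). Cacna2d3 was at 37.8 and 38.6 CPM against 43.9 and 43.7 CPM (ratio 1.15, 1.02 to 1.29). The ratios of these 3 genes were above 1, with 1.23 the highest, and the interval of Cacna2d1 included 1. Cacna2d4, the subunit of the retina, had 60 and 63 reads in control and 40 and 41 in SD (ratio 0.698, 0.456 to 1.06). The leading transcripts were Cacna2d1-202 (74.2% and 90.8%), Cacna2d2-208 (56.0% and 59.3%) and Cacna2d3-201 (90.9% and 89.4%).

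The Cav beta genes, whose cytoplasmic proteins bind the loop after the first domain of the pore, split into 2 with ratios above 1 and 2 below. Cacnb4, the beta subunit abundant in cerebellum and mutated in the lethargic mouse, was at 304 and 304 CPM against 377 and 376 CPM (ratio 1.24, 1.19 to 1.29). Cacnb3 was at 74.3 and 73.9 CPM against 59.5 and 60.1 CPM (ratio 0.807, 0.737 to 0.883). Cacnb2, the main beta subunit of the heart, was at 67.0 and 66.6 CPM against 38.1 and 38.6 CPM (ratio 0.574, 0.516 to 0.638). Cacnb1, the beta subunit of skeletal muscle that the brain also uses, was at 13.9 and 13.7 CPM against 24.3 and 24.3 CPM (ratio 1.77, 1.48 to 2.11). None passed the 2-fold rule, though the intervals of all 4 excluded 1. Such intervals were common: 31.4% of all measured genes had one above 1 and 30.5% one below 1. Cacnb4 took 66.3% of Cav beta reads in control and 75.5% in SD. Its transcript Cacnb4-202 held 91.6% and 89.3% of its reads, Cacnb3-206 56.0% and 42.7%, and Cacnb2-203 88.6% and 72.5%. On protein-coding transcripts alone the ratio of Cacnb2 was 0.491 and it was called lower. An antisense transcript gene, A430018G15Rik, shares 16.0% of the exon bases of Cacnb4.

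Of the Cav gamma genes, Cacng8 was called higher. This gene (ENSMUSG00000053395.15, chr7:3390683-3415648, plus strand, GRCm38) encodes the TARP gamma-8, known as the main TARP of hippocampal pyramidal cells. It had 19 and 15 reads in the control files and 72 and 64 reads in the SD files, or 1.13 CPM in control and 4.804 CPM in SD. The ratio was 4.26 (2.47 to 7.73), from a level that was low in both libraries. Its share on Cacng8-202 was 47.3% (23.0 to 72.2) in control and 97.1% (89.8 to 99.6) in SD, a control share that rests on 17 reads.

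Cacng2 and Cacng7 were the abundant TARPs, and their order in reads was reversed between the libraries. Per length, over protein-coding transcripts, Cacng7 stood above Cacng2 in both libraries. The levels were 62.8 against 48.9 TPM in control and 111 against 30.8 TPM in SD. Cacng2, stargazin, the TARP of cerebellar granule cells that is mutated in the stargazer mouse, was at 161 and 160 CPM in the control files and 86.6 and 86.1 CPM in the SD files (ratio 0.539, 0.502 to 0.577). Cacng7 was at 80.4 and 80.6 CPM against 121 and 120 CPM (ratio 1.499, 1.39 to 1.61). Cacng2 thus took 50.1% (48.7 to 51.5) of Cav gamma reads in control and 31.9% (30.4 to 33.4) in SD, and Cacng7 25.2% (23.9 to 26.4) and 44.6% (43.0 to 46.2). Neither passed the 2-fold rule. Cacng4 was at 56.6 and 56.8 CPM against 43.1 and 43.4 CPM (ratio 0.763, 0.686 to 0.847). Cacng5 had a ratio of 0.697 (0.57 to 0.8504) and Cacng3, a TARP of the forebrain, a ratio of 0.822 (0.559 to 1.203) on 51 to 66 reads. Cacng1 and Cacng6, the gamma subunits of muscle, were not measured: Cacng1 had 0 reads in control and 2 in each SD file, and Cacng6 had 0 reads in all 4 files. A count of 0 allows up to 3 reads, or 0.199 CPM in control and 0.212 CPM in SD. Each of Cacng2-201, Cacng4-201 and Cacng7-201 held over 95% of the reads of its gene in both libraries.

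**Figure D4:**
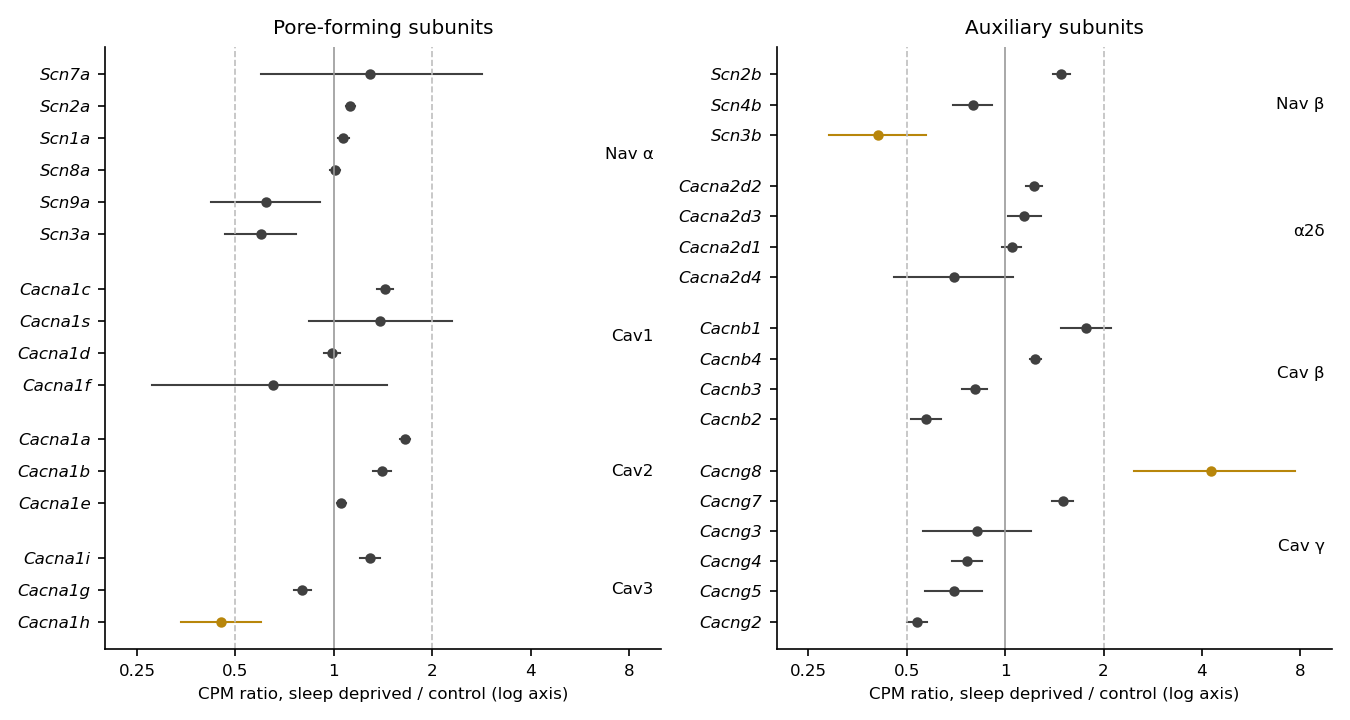
Ratio of SD over control CPM for measured genes on a log axis, pore-forming on the left and auxiliary on the right, with the 95% counting interval as a bar and dashed lines at 2-fold in either direction. Cacng8, Cacna1h and Scn3b, in gold, are the 3 that passed the rule, and Cacng2, Cacnb1 and Cacnb2 come nearest among the others.

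Set side by side, pore-forming genes had a median log2 ratio of 0.09, with 10 of 16 above 1 and 6 below. Auxiliary genes had a median of -0.16, with 8 of 18 above 1 and 10 below. The sign of the auxiliary median rested on genes with few reads: over the 11 auxiliary genes with a mean of at least 500 reads it was 0.065, with 6 above 1 and 5 below, against 0.13 over 10 such pore-forming genes. The median of all measured genes was -0.01. Summed over the group, pore-forming levels went from 2717 CPM in control to 3113 CPM in SD (ratio 1.15, 1.13 to 1.16) and auxiliary levels from 1501 to 1575 CPM (ratio 1.05, 1.03 to 1.07). The auxiliary share of member reads was 35.6% (35.2 to 36.0) in control and 33.6% (33.2 to 34.0) in SD. The difference lay on the calcium side: auxiliary genes held 42.1% (41.6 to 42.6) of calcium channel reads in control and 38.2% (37.8 to 38.7) in SD. By family, the summed ratios were 1.07 for Nav alpha, 1.18 for Cav1, 1.31 for Cav2, 0.943 for Cav3, 1.10 for Nav beta, 1.14 for alpha2delta, 1.09 for Cav beta and 0.846 for Cav gamma. Without Cacna1a the pore-forming sum had a ratio of 1.08, and without Cacng2 the auxiliary sum had a ratio of 1.11 and a median log2 ratio of -0.05. The order of the summed ratios turned only with both genes left out, and stayed with either left out alone. This pair has large ratios in opposite directions, so leaving it out draws the sums together by construction. A difference of this size between 2 libraries has no replicate check.

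**Figure D5:**
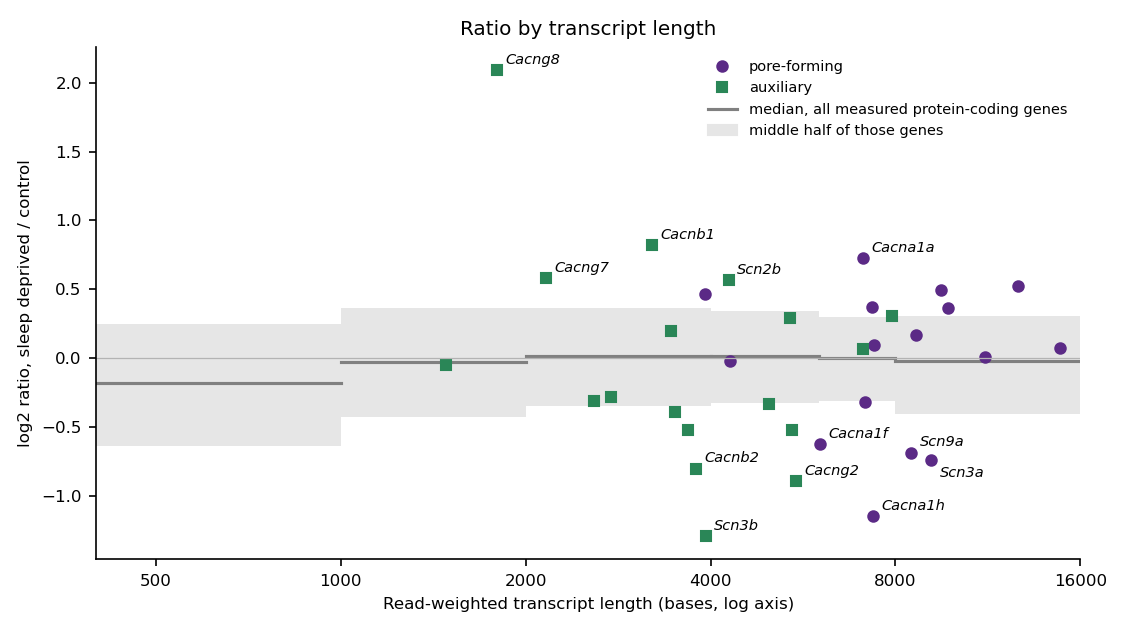
Log2 ratio of SD over control against the read-weighted transcript length of each measured gene in bases (log axis), for pore-forming (circles) and auxiliary genes (squares). The grey line and band give the median and the middle 50% of all measured protein-coding genes in bins of length; the line stays near 0 over the lengths of the members, between 1482 and 14844 bases.

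Pore-forming genes had longer transcripts, with a median read-weighted length of 7943 bases (3919 to 14844) against 3737 bases (1482 to 7886) for auxiliary genes. The median log2 ratio of all measured protein-coding genes was -0.18 under 1000 bases, where no member lay, and between -0.03 and 0.01 in every longer bin. After subtraction of the median of its length bin, the pore-forming median was 0.10 and the auxiliary median -0.16. The order of the 2 groups was the same, but bin medians this near 0 could not have changed it. The part of length in the difference was not tested by this subtraction.

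Levels per length were set side by side over protein-coding transcripts, for the members named here. In control, the order was Scn2a (91.9 TPM), Cacnb4 (64.0), Cacng7 (62.8), Cacna1a (62.4), Scn1a (57.5) and Scn8a (55.9). In SD, Cacna1a and Scn2a stood level (121 TPM each), followed by Cacng7 (111), Cacnb4 (92.5), Scn2b (83.4) and Scn1a (78.4). These TPM were not TMM-scaled, so they order genes within a library and do not compare the libraries. Scn8a, for instance, was at 55.9 TPM in control and 67.1 TPM in SD, with a CPM ratio of 1.01. Auxiliary genes summed to 734 TPM in control and 888 TPM in SD on this scale, and pore-forming genes to 416 and 607 TPM. The auxiliary genes thus stood above the pore-forming genes per length in both libraries, while the pore-forming genes had more reads.

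Other genes of these pathways were counted from 4 lists. Of 18 sodium channel partners (calmodulins, ankyrin-G, FGF homologous factors, neurofascin and others), 0 of 18 measured genes were called and the median log2 ratio was -0.13; the most abundant by mean TPM were Calm2 (ratio 0.725) and Ank3 (ratio 0.976). Of 18 calcium channel partners, 16 were measured and 3 were called higher. These were Unc13a, a vesicle priming protein, at 277 CPM in control and 622 CPM in SD (ratio 2.24, 2.16 to 2.33), Stac3, a partner of the muscle Cav1 channel (ratio 2.78, 2.21 to 3.52), and Thbs1, a secreted ligand of alpha2delta (ratio 2.47). The most abundant in this list by mean TPM, Cabp1 and Rims2, had ratios of 1.22 and 0.835, and the median log2 ratio was 0.07. Of 11 other four-domain channels and their relatives, 8 were measured, 0 were called and the median log2 ratio was 0.34; Unc80, a subunit of the sodium leak channel, had a ratio of 1.24 and Tpcn2 a ratio of 1.76. Of 9 other AMPA receptor auxiliary subunits, Prrt1 was called higher (ratio 2.12, 1.997 to 2.25) and Cnih3 lower (ratio 0.471), with a median log2 ratio of -0.41; Olfm1, the most abundant by mean TPM, had a ratio of 0.725. Set against all measured genes, of which 4.24% were called higher and 5.65% lower, the calcium channel partners had 3 of 16 called higher and the AMPA receptor auxiliary subunits 1 of 9 in each direction; none was called in the other 2 lists.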

How the data were processed

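RNA from ribosome pulldowns, enriched for polyA per the labels' protocols, was quantified by the authors per transcript. Per the file headers, each deposited file gives length, effective length, TPM and estimated counts for 116546 transcripts. The submitters' processing notes name Salmon, DESeq2 and mm10; versions, annotation and strand use are not stated there. The authors' TPM are length-scaled, and their estimated counts are not normalized. Transcripts were matched to GENCODE M21 on GRCm38 (99.4%), summed per gene and averaged over the 2 files of a group. The averages were rounded and scaled by TMM in edgeR 4.0.16 (R 4.3.3). Reads on unmatched transcripts, 0.339% to 0.366% of a file, were left out. Genes kept by filterByExpr (minimum count 10) are called measured. Intervals are exact (Clopper-Pearson), and a library under 3 reads was set to 3 for a fold. The script for ratios was tested on simulated data. Genes were named by family (the 3 of highest mean TPM in each, and every called member), and transcripts where the share shifted by 20 points or more or where the transcript led its gene. Scn1a-208, the mentions of other less abundant members and the region marker lists were added after their values were seen. The members and lists were chosen with earlier results of these data known. A few genes that these rules name are not reported here, although sums and medians include them.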

Additional observations from a re-analysis of the deposited data

How the results depend on the processing

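No paired analysis was possible because each pair of files stood closer than sampling noise and was averaged to 1 library, which leaves no residual degrees of freedom. For the same reason the planned quasi-likelihood test, the replicate block and the DESeq2 Wald test were not run. Over 11 other settings (scaling, filters, transcript length, transcripts summed, each file left out), 360 of 366 recomputed member ratios kept their call. All changed calls fell in the settings that alter transcript use: 3 of 34 with the length offset and 3 of 33 with protein-coding transcripts alone. With the average transcript length as an offset, 6 members were called (12.4% of all genes). Cacna1b (2.39), Cacna1f (0.419) and Cacna2d4 (0.439) joined. Cacna1h was at 0.134, with 1.96 of its 8.70 TPM in control on protein-coding transcripts. The pore-forming median log2 ratio was 0.027. With protein-coding transcripts alone, that median was 0.25 and the auxiliary share was 37.3% in control and 34.8% in SD. Cacna1d moved from 0.985 to 2.003 and was called higher, on only 27.3 reads in control and 50.1 in SD. Cacnb2 was called lower (0.491), and Cacna1h was not called (0.548). The cause was not tested. With a 1.5-fold rule, 9 members were called, against 26.1% of all measured genes. Leaving out each file in turn could change little, because the files of a group stood closer than sampling noise, and it is no replicate check. It gave 3 called members each time, pore-forming medians of 0.08 to 0.09 and auxiliary medians of -0.17 to -0.16. The auxiliary shares were then 35.57% to 35.59% in control and 33.55% to 33.65% in SD. The ratio of Scn8a was 0.996 with upper-quartile scaling and 0.974 with library totals, and that of Scn1a was 0.987 with the length offset. Depth limits the genes with few reads: the interval of Cacna1f ran from 0.278 to 1.45.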
